A study of Mus musculus with 14 samples.

Results

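The genes described here are Erg and 7 other transcription factors of the ETS family, Fli1, Ets1, Ets2, Elf1, Etv6, Gabpa and Spi1, measured in mouse thymic lymphomas. They were chosen by name, with earlier results of these data known. Every probe set that the platform annotation assigns to 1 of them alone was used. That gave 8 of 15803 measured genes and 82 of 194293 probe sets, from 7 probe sets for Spi1, which the annotation carries under its older symbol, to 12 for Ets2.

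Exon arrays were run on RNA of 14 snap-frozen tumours, 7 labelled Vav-SB and 7 labelled CD4-SB. In both models the Sleeping Beauty transposon jumps in the genome of developing blood cells and selects for mutations that cause T-cell acute lymphoblastic leukaemia (T-ALL). As background, the Vav promoter drives Cre in blood stem and progenitor cells, and the CD4 promoter in thymocytes from the stage that carries CD4 and CD8 onward. The strain label and the disease state are the group information used here, with no further allele, age or sex of the animals and no normal thymus. The question named by the series title is how the cell of origin shapes the mutations that are selected.

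ETS factors share a DNA-binding domain that recognises a short core, GGAA, and they differ in the cells that use them and in their partners. Erg and its nearest relative Fli1 act in blood stem cells, megakaryocytes and vessel endothelium, and in mice Erg is switched off as cells commit to the T lineage. Ets1, Elf1 and Gabpa work in developing and mature T cells. Spi1, which encodes PU.1, is shut down early in the thymus and marks myeloid and B-lineage cells. ERG overexpression is a known feature of human T-ALL.

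A gene level is the mean log2 value of the probe sets of that gene, and means are given ± SD with n = 7 tumours per model. Differences are Vav-SB minus CD4-SB, and adjusted p-values come from limma fitted to all 15803 genes, with Benjamini-Hochberg adjustment and a threshold of 0.05. In that fit 2284 genes passed, or 14.5%, with 1150 higher in Vav-SB (7.28%) and 1134 lower (7.18%). These shares are the background for every count of called genes below. The median of each array was set to nearly the same value by the normalization, so overall RNA content is not measured. The 8 measured T-cell markers, which define the labelled tumour type, stood at a mean level of 10.67 ± 0.14 in Vav-SB tumours and 10.26 ± 0.28 in CD4-SB tumours, with 2 that rose and 0 that fell. That list was higher in Vav-SB by 0.41 (exact permutation p = 0.00233, two-sided, adjusted p = 0.00544 over 7 marker lists), and its part in the gene differences was not tested. The 7 Vav-SB tumours carry 7 title numbers and the 7 CD4-SB tumours 4. Since no label states how many animals they came from, the tests cover only tumour-to-tumour spread, part of which may be technical.

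Among the 8 ETS factors, Ets2 rose and Spi1 fell in Vav-SB tumours, and 6 did not pass the test. In the same fit 7.28% of all genes rose and 7.18% fell. Erg did not pass as a group difference, but it was far higher in 3 single Vav-SB tumours than in all other tumours. Without adjustment 4 of the 8 had a p under 0.05. For this and later counts of genes or probe sets before adjustment, the share over all features was not worked out. It is at least the 14.5% of genes and 8.45% of probe sets that passed after adjustment, so these counts are only descriptions. The models overlapped in all 8, so 0 of 8 genes had every tumour of one model above every tumour of the other. Over all genes 2.51% had all Vav-SB tumours above and 1.53% all Vav-SB tumours below. The median difference of the 8 genes was 0.16, against 0.0043 for all genes.

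**Figure D1:**
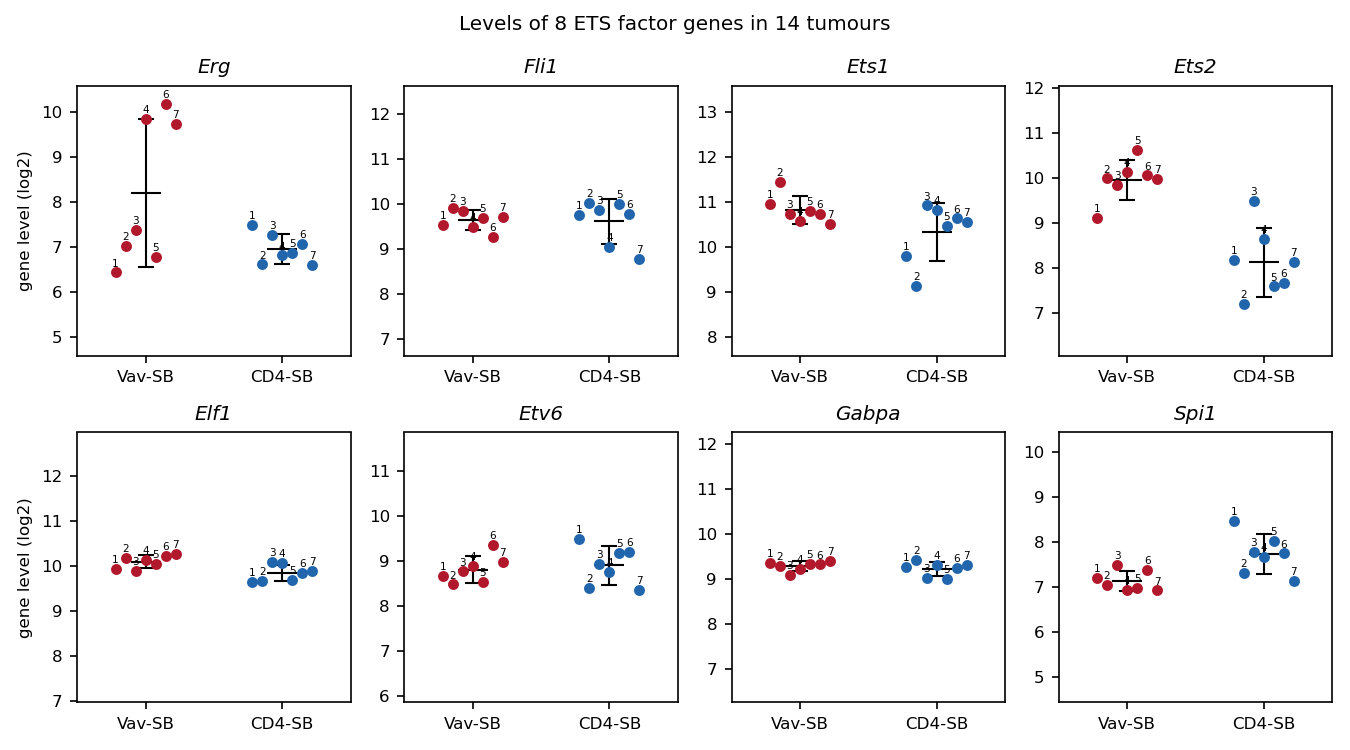
Gene level (log2) of each ETS factor in the 7 Vav-SB tumours (red, left) and the 7 CD4-SB tumours (blue, right), numbered by replicate; bars are mean ± SD and every panel spans the same range. Erg stands at 9.73 to 10.18 in Vav-SB tumours 4, 6 and 7, and Ets2 is higher in Vav-SB with overlap at 9.10 in Vav-SB tumour 1.

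The promoter windows of Erg and Ets2 are shown because the Erg probe sets were unevenly raised and RefSeq gives Erg 3 start windows, and because Ets2, its neighbour, rose in Vav-SB. On chromosome 16 of assembly GRCm38.p6 there are 0 protein-coding genes between Erg and Ets2. The same holds for Fli1 and Ets1 on chromosome 9. RefSeq windows of build GRCm38.p6 run from 250 bases before to 50 after a start site, and 5 of the 8 genes had at least 1, while Fli1, Ets1 and Spi1 had no entry. Capitals mark GGAA on either strand, written GGAA or TTCC, where overlapping matches run together.
Erg window 1, chr16:95586544-95586843, minus strand: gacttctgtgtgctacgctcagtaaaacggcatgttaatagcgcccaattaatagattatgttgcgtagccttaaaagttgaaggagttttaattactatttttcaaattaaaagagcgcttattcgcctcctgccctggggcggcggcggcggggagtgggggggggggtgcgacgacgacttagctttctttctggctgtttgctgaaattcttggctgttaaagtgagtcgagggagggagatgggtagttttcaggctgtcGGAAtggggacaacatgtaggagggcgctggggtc
Erg window 2, chr16:95530316-95530615, minus strand: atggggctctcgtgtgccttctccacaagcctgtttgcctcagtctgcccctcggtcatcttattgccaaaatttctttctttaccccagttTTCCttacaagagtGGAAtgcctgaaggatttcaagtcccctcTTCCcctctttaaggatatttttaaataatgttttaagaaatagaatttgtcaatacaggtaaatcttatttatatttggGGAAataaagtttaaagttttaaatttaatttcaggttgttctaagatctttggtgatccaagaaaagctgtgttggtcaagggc
Erg window 3, chr16:95459299-95459598, minus strand: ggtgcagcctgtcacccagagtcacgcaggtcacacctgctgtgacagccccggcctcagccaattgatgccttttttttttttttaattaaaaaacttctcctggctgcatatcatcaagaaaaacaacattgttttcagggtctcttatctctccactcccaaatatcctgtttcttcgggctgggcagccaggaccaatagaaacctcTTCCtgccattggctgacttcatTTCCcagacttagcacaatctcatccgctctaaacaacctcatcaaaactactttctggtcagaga
Ets2 window 1, chr16:95702157-95702456, plus strand: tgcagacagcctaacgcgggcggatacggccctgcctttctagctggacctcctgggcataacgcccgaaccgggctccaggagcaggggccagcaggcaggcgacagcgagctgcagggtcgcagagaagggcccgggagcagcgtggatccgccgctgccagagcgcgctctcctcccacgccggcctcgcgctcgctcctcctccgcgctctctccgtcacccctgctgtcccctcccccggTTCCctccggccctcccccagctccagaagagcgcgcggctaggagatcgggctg
The Erg windows held 1, 4 and 2 copies of these 4 letters and the Ets2 window 1. Over all 32851 windows the median was 3, and 96.0% held at least 1. The Etv6 window held 6, a count reached by 15.7% of windows. A match is only a stretch of letters and was not tested as a binding site.

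Erg, a stem cell and endothelial factor, lay at 9.85 in Vav-SB tumour 4, 10.18 in tumour 6 and 9.73 in tumour 7. The other 4 Vav-SB tumours were at 6.43, 7.03, 7.38 and 6.78, for replicates 1, 2, 3 and 5. The CD4-SB tumours ran from 6.59 to 7.48 with a median of 6.86. So the 4 lower Vav-SB tumours lay in or close to the range of the CD4-SB tumours, and the 3 high ones stood more than 2 on the log2 scale above all of these. Erg was at 8.20 ± 1.64 in Vav-SB tumours and 6.96 ± 0.33 in CD4-SB tumours. The difference was 1.24 ± 0.57 (SE), with a 95% interval of 0.02 to 2.47 (adjusted p = 0.173). Only 0.114% of all genes had a larger SD among Vav-SB tumours, while 35.2% had a larger one among CD4-SB tumours. This rank only describes the spread and is no test, since Erg was chosen with earlier results of these data known.

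Single Erg probe sets did not move together. Of its 11 probe sets, 7 lay over 1 on the log2 scale above the highest CD4-SB tumour in Vav-SB tumour 4, where 0.976% of all probe sets did so. In Vav-SB tumours 6 and 7 the count was 8 of 11 each, against 1.06% and 0.791% of all probe sets. It was 0 of 11 in each of Vav-SB tumours 1, 2, 3 and 5, where 1.05%, 0.959%, 1.38% and 1.07% of all probe sets did so. These counts describe single tumours and carry no test.

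The 7 shared probe sets were raised by similar amounts in the 3 tumours. Set against the CD4-SB mean of the same probe set, they were higher by 3.47 to 5.29 in Vav-SB tumour 4, by 3.47 to 5.42 in tumour 6 and by 3.53 to 4.99 in tumour 7, all log2. The median shifts were 4.31, 4.64 and 4.00. Probe set 5391711, for example, read 11.96, 12.29 and 11.65 in these tumours, 7.44 to 8.31 in the other Vav-SB tumours and 7.21 to 7.99 in CD4-SB. No call of detection above background was used here.

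Probe set 5329654 split the 3 tumours. It read 9.59 in Vav-SB tumour 6 and 8.82 in tumour 7 but 6.98 in tumour 4, which lies inside the range of the CD4-SB tumours, 6.67 to 7.00. The remaining Vav-SB tumours read 6.34 to 7.36. In tumour 4 this stretch of Erg was therefore at the level of tumours with low Erg while 7 others were raised.

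Another 3 probe sets, 4318853, 4656811 and 4957741, stayed within 1 of the CD4-SB mean in Vav-SB tumours 4, 6 and 7. Their shifts ran from -0.01 to 0.76 in tumour 4, from -0.39 to 0.31 in tumour 6 and from -0.81 to 0.20 in tumour 7. Probe set 4957741 was at 9.01 ± 0.49 over the Vav-SB tumours and 9.17 ± 0.69 over the CD4-SB tumours. Which exons these probe sets cover was not used here, so the uneven shifts have no position in the transcript.

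**Figure D2:**
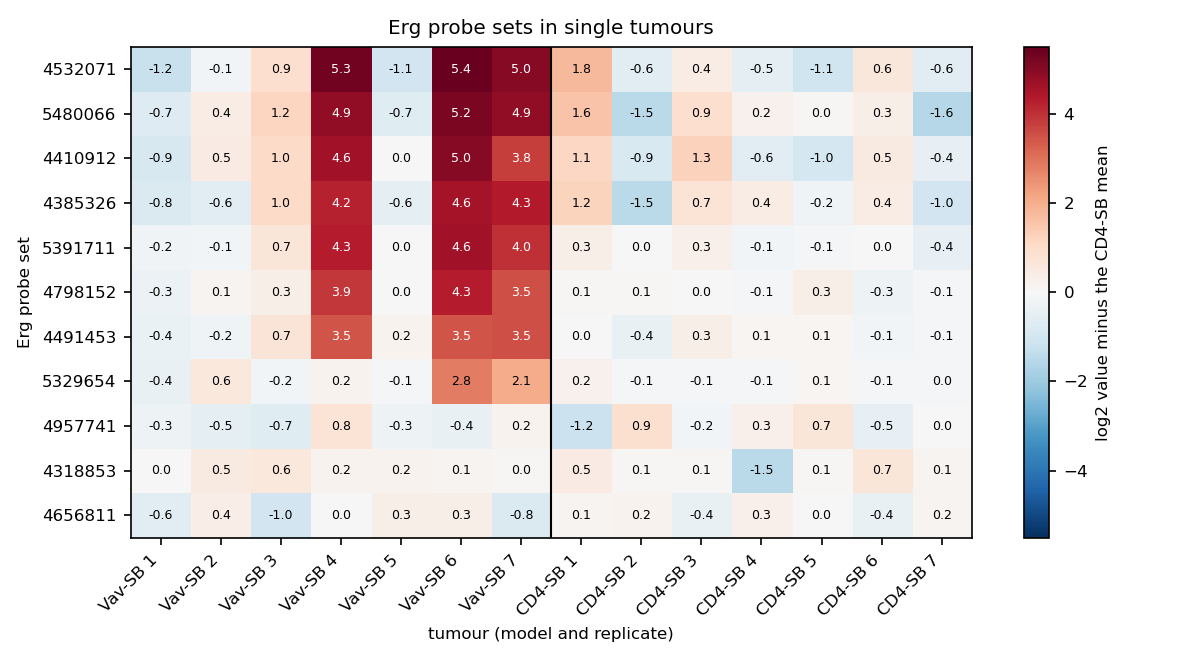
Each cell is the log2 value of an Erg probe set (rows, by its ID) in a tumour (columns, Vav-SB left of the line, CD4-SB right) minus the mean of the 7 CD4-SB tumours. Vav-SB tumours 4, 6 and 7 are raised by 3.47 to 5.42 in 7 rows, probe set 5329654 is raised only in tumours 6 and 7 among these 3, and the rows of 4318853, 4656811 and 4957741 stay within 1 of 0 in these 3 tumours.

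As a group difference 0 of the 11 Erg probe sets passed limma over all 194293 probe sets, where 8.45% passed (4.57% higher and 3.88% lower in Vav-SB). At an unadjusted p under 0.05 there were 5, and the lowest adjusted p was 0.149.

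Among CD4-SB tumours the same probe sets fell into a wide and a narrow kind. Probe sets 4385326, 4410912, 4532071 and 5480066 had SDs of 0.98, 0.95, 0.99 and 1.16 there. For 4491453, 4798152 and 5391711 the SDs were 0.23, 0.19 and 0.26. CD4-SB tumour 1 was highest at 4385326 (9.08), 4532071 (5.90) and 5480066 (8.75), and CD4-SB tumour 3 at 4410912 (8.05). Vav-SB tumour 3 was also somewhat higher at these, with 8.87, 7.81, 5.05 and 8.39 in the order first listed.

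Endothelial cells express Erg, so their markers are set beside it. The 13 endothelial markers averaged 6.92, 6.98 and 6.62 in Vav-SB tumours 4, 6 and 7, and 6.71 to 7.24 in the other 4 Vav-SB tumours. CD4-SB tumours lay between 6.72 and 7.29. The 3 tumours with high Erg were therefore within the CD4-SB range of these markers or below it. Over the list the models did not differ detectably (6.86 ± 0.21 in Vav-SB and 6.88 ± 0.21 in CD4-SB, exact permutation p = 0.84, two-sided, over 3432 splits, adjusted p = 0.84 over 7 marker lists). Of the 13, 1 rose, Pecam1, which T cells also carry, and 0 fell. The 6 megakaryocyte markers, of which 0 passed in limma and 1 had p under 0.05 before adjustment, lay at 7.06, 6.54 and 6.60 in tumours 4, 6 and 7 and at 6.61 to 6.89 in the other Vav-SB tumours. CD4-SB tumours ran from 6.35 to 7.10 in that list, which includes the value of Vav-SB tumour 4 (exact permutation p = 0.415 between models, adjusted p = 0.484). In bulk tumours, fewer cells of a type and less RNA per cell cannot be told apart.

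Within the CD4-SB tumours Erg and the endothelial marker level had r = 0.72 over 7 tumours (exact permutation p = 0.0589, adjusted p = 0.138 over 7 relations). Spearman's rho was 0.54 (exact permutation p = 0.236). Without the 2 tumours farthest from the median marker level r was -0.05, so the relation rested on those. The Vav-SB tumours fall into 2 separate clusters of Erg level, so no relation between Erg and these markers is given for them.

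Genes known as targets of Erg and Fli1 in endothelium and platelets held no called gene. Of 14 measured, 0 rose and 0 fell in limma, 2 had an unadjusted p under 0.05, and the lowest adjusted p was 0.1. Their mean level was 7.13, 6.98 and 6.78 in Vav-SB tumours 4, 6 and 7, and 6.80 to 7.39 in the other Vav-SB tumours. CD4-SB tumours had 6.93 to 7.34. The median difference of the list was -0.06, against 0.0043 for all genes.

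Genes most like Erg were ranked by Pearson's r over 14 tumours after the mean of each model was taken off, among 10295 genes whose highest tumour lay above the median level. The values are descriptions without a test, and they lean on Vav-SB tumours 4, 6 and 7, so a high r says mainly that a gene was higher in these 3. The 8 leading genes had r from 0.77 to 0.88. They were Lama4 (a laminin chain), Laptm4b (a lysosomal membrane protein), Gm5111, Uaca, Osbpl1a (an oxysterol-binding protein), Acsf2 (an acyl-CoA synthetase), Chd3 (a chromatin remodeller) and Stc1 (the hormone stanniocalcin).

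Gm5111 read 8.48, 9.40 and 7.95 in Vav-SB tumours 4, 6 and 7, and 5.21 to 5.98 in the other Vav-SB tumours. CD4-SB tumours had 5.11 to 6.99. Lama4 read 7.63, 8.06 and 8.43 in those tumours, 6.14 to 6.95 in the other Vav-SB tumours, and 6.36 to 7.82 in CD4-SB. The highest CD4-SB tumour, replicate 1, was above Vav-SB tumour 4 in Lama4, with Erg at 7.48.

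Chd3 read 7.72, 8.06 and 7.81 in Vav-SB tumours 4, 6 and 7 and 6.49 to 6.91 in the other Vav-SB tumours. CD4-SB tumours, where Erg was low, had 7.49 to 8.97, a difference of -1.02 (adjusted p = 0.0303). Stc1 read 8.84, 8.54 and 8.15 in tumours 4, 6 and 7, but 8.01 in Vav-SB tumour 5, where Erg was low, and it rose as a group (1.57, adjusted p = 0.0167). Uaca rose too (1.77, adjusted p = 0.0429), with 8.70 and 8.58 in Vav-SB tumours 3 and 5.

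Fli1, the nearest relative of Erg, did not differ detectably between the models. It ran from 9.28 to 9.92 with a median of 9.70 in Vav-SB and from 8.80 to 10.04 with a median of 9.79 in CD4-SB tumours. The difference was 0.02, with a 95% interval of -0.38 to 0.43 (adjusted p = 0.953), and its sign turned with a median over probe sets, array weights and 1 tumour per title number. In Vav-SB tumours 4, 6 and 7, where Erg was high, Fli1 read 9.50, 9.28 and 9.72. The 2 lowest values were those of CD4-SB tumours 4 and 7, at 9.05 and 8.80. By limma 0 of its 10 probe sets passed, and 0 had p under 0.05 before adjustment. Arhgap26 and Neo1 (a netrin-family receptor) were most like Fli1, with r = 0.90 and 0.88 over 14 tumours. Within Vav-SB alone r was 0.48 and 0.94, and within CD4-SB alone 0.96 and 0.90.

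Ets2, a factor activated by Ras and MAP kinase signals, was the member with the largest difference. It ran from 9.10 to 10.61 with a median of 9.98 in Vav-SB tumours, and from 7.19 to 9.47 with a median of 8.12 in CD4-SB tumours. The overlap came from CD4-SB tumour 3, at 9.47, and Vav-SB tumour 1, at 9.10, while the next CD4-SB tumour was at 8.64. The mean level of 2 measured Y-linked genes was 9.28, 9.49 and 9.41 in Vav-SB tumours 4, 5 and 6. It was 9.26 in CD4-SB tumour 3 and 4.45 to 4.70 in all others. Tumours with a high Y-linked level had the highest Ets2 of their model. With that level as a covariate the Ets2 difference was 1.585 ± 0.257 (SE, limma adjusted p = 0.00191), and the part of sex was not otherwise tested. Ets2 was at 9.96 ± 0.45 in Vav-SB tumours and 8.12 ± 0.76 in CD4-SB tumours. It was 3.57-fold higher in Vav-SB (1.84 ± 0.31 SE, 95% interval 1.18 to 2.49, adjusted p = 0.00144).

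All 12 Ets2 probe sets rose in Vav-SB, by 1.25 to 2.61, with adjusted p from 0.000947 to 0.0311 over all probe sets. Of 2 probe sets picked after their values were seen, 5249764, which had the largest difference of the 12, ran from 8.97 to 10.41 in Vav-SB tumours and from 4.83 to 8.20 in CD4-SB tumours, with no overlap. The other, 4891466, with the smallest, ran from 9.13 to 10.30 in Vav-SB tumours and from 7.73 to 10.47 in CD4-SB tumours, where CD4-SB tumour 3 was highest of all 14.

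Ets2 was not highest where its neighbour Erg was high. It read 10.12, 10.05 and 9.98 in Vav-SB tumours 4, 6 and 7, within the range of the other Vav-SB tumours, and the highest value, 10.61, was in Vav-SB tumour 5, where Erg was low. Between CD4-SB tumours the spread of Ets2 was wide, larger in 6.43% of all genes. Rmc1 and Ttpal (a lipid transfer protein relative) were most like Ets2, with r = 0.90 and 0.88. Within Vav-SB alone r was 0.69 and 0.78, and within CD4-SB alone 0.99 and 0.94.

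The call of Ets2 was lost with the myeloid marker level as a covariate (adjusted p = 0.102). Its difference was then 1.80 ± 0.50 (SE), against 1.84 ± 0.31 without it, and 217 genes passed in all, against 2284. The level ran from 7.59 to 8.50 in Vav-SB and from 8.45 to 9.33 in CD4-SB tumours, so it nearly separates the models. Fits with this covariate, here and below, can hardly tell it from the model. Among the 7 CD4-SB tumours Ets2 and the myeloid marker level had r = 0.22 (exact permutation p = 0.608, adjusted p = 0.839 over 7 relations) and rho = 0.43 (exact permutation p = 0.354), and r was -0.29 without the 2 tumours farthest from the median. The part of myeloid cells in the difference was not tested.

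Spi1, the myeloid and B-lineage factor PU.1, fell in Vav-SB tumours. It ran from 6.93 to 7.49 with a median of 7.04 in Vav-SB and from 7.14 to 8.47 with a median of 7.75 in CD4-SB. It was at 7.14 ± 0.22 in Vav-SB tumours and 7.74 ± 0.44 in CD4-SB tumours, a difference of -0.60 ± 0.18 (SE, adjusted p = 0.0342), or 1.51-fold lower. CD4-SB tumours 2 and 7 lay at 7.31 and 7.14, inside the Vav-SB range. Leaving out 1 tumour ended the call (adjusted p from 0.0507 to 0.0704) for Vav-SB tumours 1, 2, 4, 5 and 7 and for CD4-SB tumours 1, 3, 5 and 6, with differences from -0.61 to -0.47.

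Myeloid cells carry Spi1, and their markers were also lower in Vav-SB. Of 13 measured myeloid markers, 0 rose and 6 fell in Vav-SB. Their mean level ran from 7.59 to 8.50 in Vav-SB and from 8.45 to 9.33 in CD4-SB tumours (exact permutation p = 0.00117, adjusted p = 0.00544 over 7 marker lists). In the fit with this level as a covariate the Spi1 difference was 0.069 ± 0.17 (adjusted p = 0.884), with the sign turned. Among the 7 CD4-SB tumours Spi1 and the marker level had r = 0.88 (exact permutation p = 0.00516, adjusted p = 0.0181 over 7 relations), with rho = 0.86 (exact permutation p = 0.0238, adjusted p = 0.167). Without the 2 tumours farthest from the median marker level r was 0.86.

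In Vav-SB the marker level fell into 2 sets of tumours, and no r is given. That relation is still among the 7 adjusted together, and it lowers the adjusted p given above for Spi1 in CD4-SB. Tumours 1, 3 and 6 had markers at 8.11, 8.50 and 8.35 and Spi1 at 7.21, 7.49 and 7.39. Tumours 2, 4, 5 and 7 had markers at 7.59 to 7.74 and Spi1 at 6.93 to 7.04. Markers of dendritic cells, which also use Spi1, were lower in Vav-SB as well (7.13 ± 0.18 in Vav-SB against 7.74 ± 0.49 in CD4-SB, exact permutation p = 0.0163, adjusted p = 0.0285), with 0 of 8 that rose and 2 that fell. Over 7 B-cell markers, none of which passed singly in limma and 3 of which had p under 0.05 before adjustment, Vav-SB tumours averaged 6.36 ± 0.19, against 7.02 ± 0.74 for CD4-SB tumours (exact permutation p = 0.0449, adjusted p = 0.0628).

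**Figure D3:**
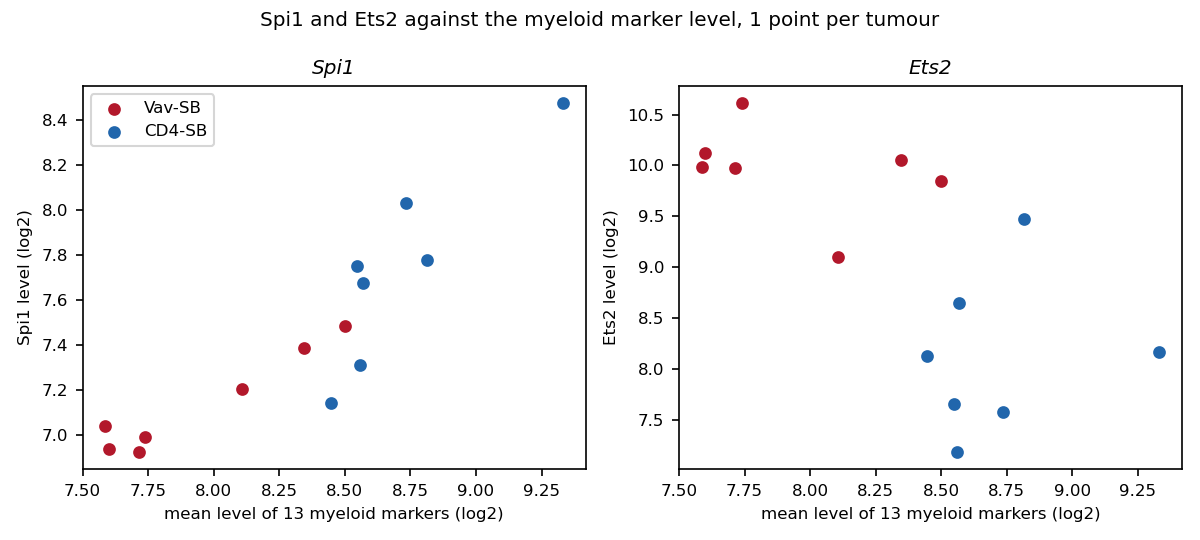
Level of Spi1 (left) and Ets2 (right) against the mean level of 13 myeloid markers, all log2, with 1 point per tumour (red Vav-SB, blue CD4-SB). Spi1 reaches 8.47 in CD4-SB tumour 1, where the marker level is 9.33, and the highest Ets2 level, 10.61, is in Vav-SB tumour 5, where the marker level is 7.74.

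Of the 7 Spi1 probe sets, 2 fell. Probe set 4822844 had 7.45 ± 0.81 in Vav-SB tumours against 8.81 ± 0.79 in CD4-SB tumours (adjusted p = 0.0399). Probe set 4786842 had 6.87 ± 0.79 in Vav-SB tumours against 8.09 ± 0.65 in CD4-SB tumours (adjusted p = 0.0427). The other 5 did not pass, with differences from -0.51 to 0.01. Over the 8 genes 12 of 82 probe sets rose and 2 fell, where 4.57% of all probe sets rose and 3.88% fell. With the myeloid marker level as a covariate 0 of the 82 passed in limma.

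Of 9 measured genes known as targets of Spi1 in myeloid cells, 0 rose and 6 fell, where 7.28% of all genes rose and 7.18% fell. The median difference of the list was -0.88, against 0.0043 for all genes. Fcgr3 (an antibody receptor) fell by 1.29, Cybb (a subunit of the phagocyte oxidase) by 2.04 and Csf1r (the receptor of macrophage colony-stimulating factor) by 1.12 on the log2 scale, with adjusted p of 0.0018, 0.00884 and 0.0103. Fcgr3 and Csf1r are also in the myeloid marker list. Tgfbi and Anxa4 (an annexin) were most like Spi1, with r = 0.95 and 0.94 over 14 tumours, and both fell (adjusted p = 0.00657 and 0.0163).

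Ets1, which with Runx1 acts on T-cell receptor gene enhancers, did not pass. It ran from 10.51 to 11.45 with a median of 10.74 in Vav-SB and from 9.15 to 10.93 with a median of 10.56 in CD4-SB. CD4-SB tumours 1 and 2, which share a title number, were the lowest at 9.81 and 9.15, and the other 5 lay at 10.48 to 10.93. The difference was 0.48 (95% interval -0.05 to 1.01, adjusted p = 0.225). All 10 probe sets had a difference above 0, from 0.32 to 0.72, of which 0 passed and 3 had an unadjusted p under 0.05 in limma. Probe sets of a gene share their tumours and are not replicates. Ttc3 and Usp47 (a deubiquitinase) were most like Ets1, with r = 0.91 and 0.89. Within Vav-SB alone r was 0.74 and 0.53, and within CD4-SB alone 0.94 and 0.96.

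Among 8 measured genes known as targets of Ets1 in lymphocytes, 3 rose and 2 fell, where 7.28% of all genes rose and 7.18% fell. Bcl11b (a factor of T-lineage commitment) rose by 0.69 and Cd8a (the CD8 alpha chain) by 2.24, while Runx3 (a factor of CD8 T cells) fell by 0.66, with adjusted p of 4.5e-05, 0.00729 and 0.00725. The other called genes were Tcf7 and Prdm1. Tcf7, a T-lineage factor, rose by 1.76 (adjusted p = 0.0275). Prdm1, a transcriptional repressor in lymphocytes, fell by 1.02 (adjusted p = 0.0232). The median difference of the list was 0.52.

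Elf1, a lymphoid ETS factor, did not pass. It ran from 9.89 to 10.27 with a median of 10.13 in Vav-SB and from 9.64 to 10.08 with a median of 9.84 in CD4-SB tumours. The difference was 0.26 ± 0.09 (95% interval 0.05 to 0.46, adjusted p = 0.0866). With array weights it passed at 0.28 (adjusted p = 0.0425) and without CD4-SB replicate 3 at 0.30 (adjusted p = 0.0491). By limma 0 of 11 probe sets passed, with 5 at p under 0.05 before adjustment. Ccs (the copper chaperone of superoxide dismutase) and Bcor (a BCL6 corepressor) were most like it, with r = 0.90 and 0.88.

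Etv6, a repressor needed for blood formation in the bone marrow and a fusion partner in human leukaemia, did not differ detectably. It ran from 8.48 to 9.37 with a median of 8.77 in Vav-SB and from 8.36 to 9.50 with a median of 8.94 in CD4-SB tumours. The difference was -0.09 (95% interval -0.49 to 0.30, adjusted p = 0.805), and its sign turned to 0.39 with the myeloid markers as a covariate. Vav-SB tumour 6 and CD4-SB tumour 1 were highest in their models. By limma 0 of 10 probe sets passed, with 0 at p under 0.05 before adjustment. Stx4a (a membrane fusion protein) and Slamf7 (a lymphocyte surface receptor) were most like it, with r = 0.93 and 0.91.

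Gabpa, the DNA-binding subunit of GABP, did not differ detectably and had the lowest SD of the 8 genes in each model. It ran from 9.11 to 9.41 with a median of 9.33 in Vav-SB and from 9.01 to 9.43 with a median of 9.27 in CD4-SB tumours. The difference was 0.06 (95% interval -0.11 to 0.24, adjusted p = 0.679), and of 11 probe sets 0 passed, with 0 at an unadjusted p under 0.05. Larger SDs were found in 89.5% of genes among Vav-SB and 83.0% among CD4-SB tumours. Mrps30 (a mitochondrial ribosome protein) and Incenp (a centromere protein) were most like it, with r = 0.94 and 0.92.

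Both genes of the partner subunit of GABP rose in Vav-SB while Gabpa did not pass. Gabpb1 was at 9.15 ± 0.17 in Vav-SB tumours and 8.35 ± 0.13 in CD4-SB tumours, 1.74-fold higher (0.80 ± 0.09 SE, adjusted p = 5.92e-05). Gabpb2 was at 9.15 ± 0.16 in Vav-SB tumours and 8.84 ± 0.15 in CD4-SB tumours (0.31, adjusted p = 0.0328). Whether the difference of Gabpb1 departs from that of Gabpa was not tested. Of 8 measured genes known as targets of GABP in other cells, 2 rose and 0 fell, where 7.28% of all genes rose and 7.18% fell. The 2 that rose were Nrf1 (a regulator of mitochondrial genes), by 0.61 (adjusted p = 0.000937), and Skp2 (a ubiquitin ligase subunit of the cell cycle), by 0.84 (adjusted p = 0.00953). The median difference of the list was 0.09, against 0.0043 for all genes.

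Of 16 partner genes of ETS factors measured, 3 rose and 2 fell in all, where 7.28% of all genes rose and 7.18% fell. Besides the GABP subunits, Runx1 rose (0.69, adjusted p = 0.0358). Jun (an AP-1 subunit) and Irf8 (a myeloid partner of PU.1) fell by 0.97 and 0.73, with adjusted p of 0.00697 and 0.0135. The median difference of the list was -0.11.

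**Figure D4:**
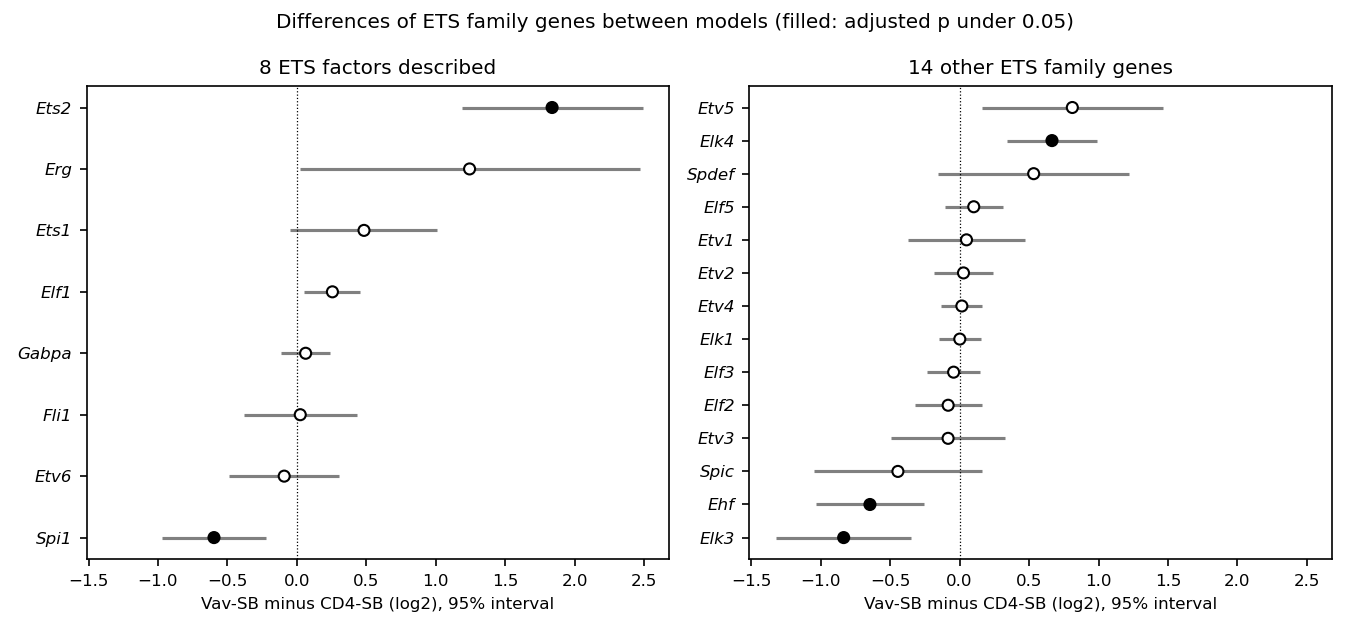
Difference Vav-SB minus CD4-SB (log2) with its 95% interval for the 8 ETS factors described (left) and 14 other ETS family genes (right), where filled points passed an adjusted p under 0.05. Ets2 at 1.84 and Elk4 at 0.66 lie highest among the filled points, and Spi1, Ehf and Elk3 lie below 0.

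**Figure D5:**
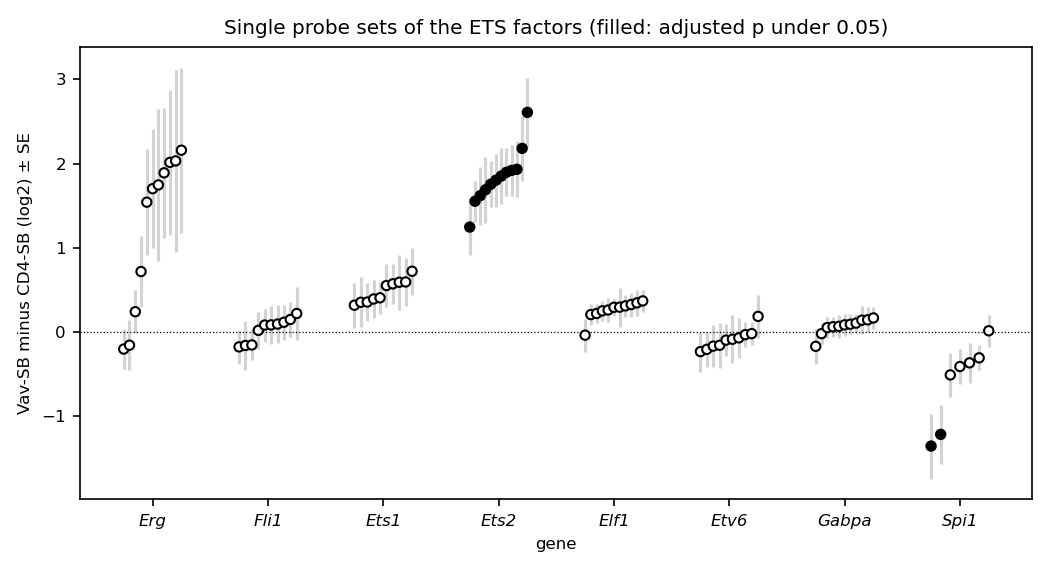
Difference Vav-SB minus CD4-SB (log2) ± SE of every probe set of the 8 genes, sorted within each gene, with filled points past an adjusted p under 0.05 over all probe sets. All 12 Ets2 points and 2 Spi1 points are filled, and Erg has 3 points near 0 beside wide bars for the rest.

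Probe sets were also compared with the rest of their gene between models. With diffSplice 0 of 82 departed from their gene, where 1.33% of 177027 probe sets did, and 5 had an unadjusted p under 0.05. With limma on each probe set's distance from the mean of the other probe sets of its gene, a test added after seeing the data, 1 of 82 passed, against 1.77% of all. That was Ets2 probe set 4891466, at -0.65 (adjusted p = 0.0228).

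The 8 genes were also compared with each other within models, leaving out Erg in Vav-SB, and 0 of 49 relations passed by exact permutation after adjustment, with 5 at an unadjusted p under 0.05. The lowest p was that of Etv6 with Spi1 in CD4-SB (r = 0.95, exact permutation p = 0.00119, adjusted p = 0.0583 over 49, n = 7). Spearman's rho was 0.89 for this pair (exact permutation p = 0.0123, adjusted p = 0.151), and without the 2 tumours farthest from the median r was 0.90. Fli1 and Ets1, which lie side by side, were not among these 5.

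Of the other ETS family genes, 14 of 18 listed were measured, 1 rose and 2 fell, where 14.5% of all genes passed in either direction. Elk4, a partner of serum response factor, stood at 10.46 ± 0.16 in Vav-SB tumours and 9.79 ± 0.39 in CD4-SB tumours (0.66, adjusted p = 0.00936). Elk3, another factor of that subfamily, stood at 8.70 ± 0.43 in Vav-SB tumours and 9.54 ± 0.49 in CD4-SB tumours (-0.83, adjusted p = 0.0246). Ehf, an epithelial ETS factor, stood at 6.17 ± 0.33 in Vav-SB tumours and 6.82 ± 0.39 in CD4-SB tumours (-0.65, adjusted p = 0.028). With the myeloid markers as a covariate these differences were 0.54, -0.23 and -0.31, and none of the 3 passed (adjusted p = 0.327, 0.757 and 0.625). Ehf had a mean level below the median of all genes, 7.22, and was absent from the fit of genes above that median. Ehf also lost its call with the median over probe sets (adjusted p = 0.0723) and without Vav-SB tumour 1, 4, 5 or 7 or CD4-SB tumour 3 or 5 (adjusted p from 0.05002 to 0.0596). Elk3 lost it when the Y-linked gene level entered the fit (adjusted p = 0.0513) and without Vav-SB tumour 7 or CD4-SB tumour 5 (adjusted p = 0.0503 each). The 9 stromal and epithelial markers, of which 0 rose and 3 fell, stood at 7.77 ± 0.28 in Vav-SB tumours and 8.46 ± 0.31 in CD4-SB tumours (exact permutation p = 0.00175, adjusted p = 0.00544), and their part was not tested.

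Spdef, an epithelial ETS factor named here after its values were seen, stood apart in 1 tumour. It read 9.92 in Vav-SB tumour 4 and 7.38 to 7.51 in the other Vav-SB tumours, against 7.12 to 7.43 in CD4-SB. Of its 10 probe sets, 7 lay over 1 above the highest CD4-SB tumour in Vav-SB tumour 4. Probe set 4792391 read 12.59 there, 7.02 to 7.73 in the other Vav-SB tumours and 6.80 to 7.78 in CD4-SB tumours. Probe set 5231826 read 10.73, against 4.80 to 5.63 in the other Vav-SB tumours and 5.08 to 5.72 in CD4-SB. Probe sets 5010666 and 5208822 read 8.21 and 7.23 in tumour 4, inside the ranges of the other tumours. Probe set 4918800 was higher in every Vav-SB tumour, at 11.12 to 11.63 against 10.02 to 10.57 in CD4-SB, and read 11.36 in tumour 4. Vav-SB tumour 4 is thus the tumour with high Erg, with probe set 5329654 of Erg low, and with high Spdef.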

How the data were processed

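Thymic lymphoma RNA was amplified into cDNA before labelling and hybridised to exon arrays, per the labels' protocols. The submitters' processing notes list RMA and Partek, and the labels' annotation files are of mm9. Values are RMA log2 intensities per probe set in the table that the authors deposited, where the log base was read from the range, 2.03 to 14.03. Of 194293 probe sets, 179496 had 1 gene symbol, 1328 several and 13469 none in the platform annotation, and symbols were updated through a gene table of GRCm38.p6. No filter on dim probe sets was applied, and 0 pairs of columns were identical.

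The strain label set the groups, and replicate numbers follow the order of the samples. Tests used limma 3.58.1 in R 4.3.3, with lmFit and eBayes, and diffSplice for genes of 3 or more probe sets. Exact permutation tests of marker lists ran in R. Those of relations ran in Python 3.11.15 with numpy 2.4.6, with ranks from scipy 1.17.1. The number of arrays limits the precision. Members and lists were chosen with earlier results of these data known. Genes named are the 8 members, other ETS genes that passed, up to 3 passing genes per list and the genes nearest by r. Gabpb2, Runx1, Tcf7, Prdm1, Spdef, the 3 Erg probe sets that were not raised and the single Ets2, Spi1 and Spdef probe sets were named after their values were seen. On simulated data with 15803 genes, limma recovered 88% of genes changed by 1, with 6 calls among unchanged genes. Like the next, this simulation drew each feature on its own, with the same normal spread in both models. Variation shared between genes and spreads that differ between models were left out, so the rates need not hold for these tumours. On simulated data with 177027 probe sets of unequal spread, diffSplice recovered 96% of probe sets changed by 2 but made 398 calls among unchanged ones, and the test per probe set recovered 86% with 4. Alternatives covered normalization, gene summaries, filters, weights, title numbers, marker covariates (endothelial, myeloid and Y-linked genes) and each tumour left out.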

Additional observations from a re-analysis of the deposited data

Results flagged for a closer look

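Of 66 groups of 7 tumours examined for a single tumour apart from the rest by the ratio of gap to range, at the gene level of 22 ETS genes and at the 11 Erg probe sets, 2 gave a ratio above Dixon's critical value, where chance gives about 1 in 20. Spdef was highest in Vav-SB tumour 4, at 9.92, with the next Vav-SB tumour at 7.51 (ratio 0.95). Erg probe set 4318853 was lowest in CD4-SB tumour 4, at 5.70, with the next CD4-SB tumour at 7.21 (ratio 0.71). Erg itself gave no such flag in Vav-SB, since 3 tumours were high together.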

How the results depend on the processing

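Of 274 differences over the alternatives, 236 kept their sign and their side of the threshold, 25 lost the call, 2 gained it and 11 changed sign. Erg did not pass in any of 25 settings, with differences from 0.91 to 1.54, and its count of raised probe sets uses no fit. With the myeloid markers as a covariate 0 of the 8 genes and 0 of their 82 probe sets passed and 217 genes in all. The differences were then 1.80 for Ets2, 0.39 for Etv6, -0.029 for Gabpa and 0.069 for Spi1, and the cause was not tested. With the median over probe sets 1 of the 8 passed, with -0.088 for Fli1 and -0.76 for Spi1. With Y-linked genes as a covariate 1 passed, with 1.585 for Ets2, against 1.84 in the main fit, and -0.59 for Spi1. Erg was then at 0.97, against 1.24 in the main fit. The Y-linked level was high in Vav-SB tumours 4, 5 and 6 and in CD4-SB tumour 3 only. Array weights gave -0.0070 for Fli1 and 0.28 for Elf1, and 1 tumour per title number gave -0.035 for Fli1. Leaving out each tumour in turn gave 1 to 2 genes past the threshold, with -0.11 to 0.094 for Fli1 (signs turned without Vav-SB tumours 2 and 3 and CD4-SB tumours 4 and 7), 0.22 to 0.30 for Elf1, -0.18 to 0.0069 for Etv6 and -0.70 to -0.47 for Spi1. Ets2 passed in all 14 of those fits. Over all genes 1628 to 2518 passed there, and 11 to 14 of the 82 probe sets. The test per probe set added after seeing the data called 1 probe set apart from its gene, where diffSplice called 0. Among the other ETS genes, Ehf lost its call in 8 settings and Elk3 in 4, and Elk4 lost it with the myeloid covariate. No paired analysis was possible because the labels give no replicate numbers that pair Vav-SB with CD4-SB tumours.

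With 7 arrays per model, small differences cannot be resolved, and the intervals above show their size. Apart from the comparisons with a median level, values of different probe sets or genes were not compared as levels. RNA amplification, 4 title numbers for the CD4-SB tumours and cells other than lymphoma cells in bulk tissue limit what a difference says about the tumour cells.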
